A study of Mus musculus with 8 samples.

Results

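The 10 genes described here are known for holding cells in an epithelial state, and they were followed in NMuMG cells, a line of epithelial cells that came from the mammary gland of a normal mouse. They were the rows of the deposited table of read counts whose symbol was *Grhl1*, *Grhl2*, *Ovol1*, *Ovol2*, *Esrp1*, *Esrp2*, *Elf3*, *Elf5*, *Ehf* or *Gata3*, and each of these 10 symbols had a single row among 37310. RNA was sequenced from 4 groups of 2 libraries each. The control group held NMuMG cells, and whether these had been through cloning is not given in the sources used here. The group labelled knockout held NMuMG cells in which CRISPR-Cas9 had removed a promoter fragment together with part of the first exon of *Lnc-Nr6a1*, a long non-coding RNA gene listed as *Gm13507*. The deletion was homozygous and edited cells were grown as clones from single sorted cells, so that clone and deletion cannot be told apart. Both genotypes were sequenced untreated and after 2 h with 10 ng/ml TGF-β1, a growth factor that starts the epithelial-to-mesenchymal transition (EMT) in this line.

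The 10 genes act at several levels of epithelial identity. Grainyhead-like factors (*Grhl1*, *Grhl2*) bind enhancers of junction genes and keep them accessible, OVO-like factors (*Ovol1*, *Ovol2*) repress the genes of EMT factors such as ZEB1, and GATA3 directs the luminal fate of the mammary gland. *Elf3*, *Elf5* and *Ehf* encode ETS factors whose expression is largely restricted to epithelia, ELF5 being the factor of the secretory alveolar cell. *Esrp1* and *Esrp2* encode splicing regulators that select the epithelial isoforms of genes such as *Fgfr2* and *Cd44*. TGF-β induces the Snail and ZEB repressors, which bind E-boxes in epithelial genes.

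Promoter sequences are shown for members whose windows differed most in the E-box CAGGTG, the element of the Zeb and Snail repressors that oppose these genes. Each window runs from 250 bases before to 50 bases after an annotated RNA start, on the strand of the gene, as given by RefSeq for GRCm38.p6. Windows were found for 5 of the 10 members (*Grhl1*, *Ovol2*, *Elf3*, *Elf5* and *Gata3*), 7 windows in all. No window was found for *Grhl2*, *Ovol1*, *Esrp1*, *Esrp2* and *Ehf*. Capitals mark matches to CAGGTG, which reads CACCTG on the other strand, or to GGCGCC, an element bound by SMAD proteins, the effectors of TGF-β signalling. The windows of *Elf3* (chr1:135258423-135258722, minus strand), *Elf5* (chr2:103411848-103412147, plus strand), *Grhl1* (chr12:24572037-24572336, plus strand) and *Ovol2* (chr2:144331313-144331612, minus strand) read as follows.
Elf3: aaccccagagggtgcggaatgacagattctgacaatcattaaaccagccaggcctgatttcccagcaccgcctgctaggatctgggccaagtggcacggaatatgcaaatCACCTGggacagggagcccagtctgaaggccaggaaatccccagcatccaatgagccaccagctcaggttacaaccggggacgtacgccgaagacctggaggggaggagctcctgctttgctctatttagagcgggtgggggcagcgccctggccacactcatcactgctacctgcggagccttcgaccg
Elf5: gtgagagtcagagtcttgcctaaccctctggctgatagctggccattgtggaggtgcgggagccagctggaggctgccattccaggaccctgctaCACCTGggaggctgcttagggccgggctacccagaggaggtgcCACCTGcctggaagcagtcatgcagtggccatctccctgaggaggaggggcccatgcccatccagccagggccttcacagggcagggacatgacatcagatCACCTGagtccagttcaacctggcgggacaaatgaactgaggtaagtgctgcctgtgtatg
Grhl1: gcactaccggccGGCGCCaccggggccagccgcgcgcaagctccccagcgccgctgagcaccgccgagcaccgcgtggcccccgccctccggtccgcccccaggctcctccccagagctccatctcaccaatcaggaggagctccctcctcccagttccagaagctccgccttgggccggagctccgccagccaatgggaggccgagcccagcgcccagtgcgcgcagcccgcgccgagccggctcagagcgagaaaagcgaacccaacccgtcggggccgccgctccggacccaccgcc
Ovol2: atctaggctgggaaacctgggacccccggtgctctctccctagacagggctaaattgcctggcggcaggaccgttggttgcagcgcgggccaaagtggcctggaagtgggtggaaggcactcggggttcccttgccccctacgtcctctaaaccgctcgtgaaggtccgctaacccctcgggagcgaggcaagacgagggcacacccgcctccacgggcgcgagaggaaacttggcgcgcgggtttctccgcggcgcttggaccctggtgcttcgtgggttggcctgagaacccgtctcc
The *Elf3* window held 1 CAGGTG, at -140 from the start. The *Elf5* window shown, 1 of 2, held 3, at -155, -112 and -11, all read from the other strand. Of the 32851 RefSeq windows of this length, 120 (0.365%) held at least 3 and 20.2% held any. These shares are for a single window, while this one was picked among 7 for its E-boxes. The *Grhl1* window shown, also 1 of 2, had no CAGGTG and 1 GGCGCC at -238, an element found in 11.9% of all windows. A GGCGCC also stood at -212 and at 27 in the *Gata3* window (chr2:9878551-9878850, minus strand). None of the 6 motifs searched was found in the *Ovol2* window. The other 4 motifs were the Grainyhead-like AACNGGTT (2.09% of all windows), the SMAD palindrome GTCTAGAC (0.213%), the ETS motif CCGGAAGT (3.89%) and the GATA motif AGATAA (11.2%), and none of them was found in any of the 7 windows. Both strands were searched and motifs did not overlap one another. The *Grhl1* window shown and the *Gata3* and *Ovol2* windows were rich in CpG, with 35, 22 and 25 CpG and 75.3%, 67.3% and 65.7% GC, beside a median of 7 CpG and 52.7% GC over all windows. The other *Grhl1* window (chr12:24580469-24580768) had 0 CpG, 51.3% GC and no match. The *Elf5* window shown had 3 CpG, and the other one 10 CpG and 1 CAGGTG. These matches are letters in a window, and binding was not measured.

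Libraries held between 4297832 and 13574397 counted reads, so that 3 counts, taken here as the limit of detection, corresponded to 0.238 to 0.661 CPM, counts scaled to library size. Untreated, the targeted *Gm13507* reached 3 and 14 counts in the control group, beside 11 and 7 in cells labelled knockout, which does not separate the genotypes. These counts cover the whole gene, while the deletion removed a promoter fragment with part of the first exon. In untreated libraries they do not bear out the genotype labels, and the reason was not tested. Comparisons that use the untreated libraries rest on the labels alone. After TGF-β it had 25 and 35 counts in control cells and 0 in both libraries of cells labelled knockout. The cells were checked against markers of mammary cell types. The luminal keratin genes *Krt8*, *Krt18* and *Krt19* and the E-cadherin gene *Cdh1* were well expressed, while *Epcam* had at most 2 counts in any library and the claudin genes *Cldn3* and *Cldn7* had 0 in all 8. Of 8 basal and myoepithelial markers only *Krt14* passed the filter on low counts. Immune markers summed to at most 5.45 CPM and endothelial markers to at most 0.847 CPM in a library.

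Transcripts of 4 members were abundant enough to be tested, and those of the other 6 were rare or not detected in this line. *Elf3*, *Esrp2*, *Ehf* and *Grhl1* each had at least 15 counts in every library. *Gata3* and *Grhl2* reached 12 and 6 counts at most, and *Ovol1*, *Ovol2*, *Esrp1* and *Elf5* had at most 3 counts in every library. Levels of different genes were compared per length, as CPM per kilobase of exon (RPKM).

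**Figure D1:**
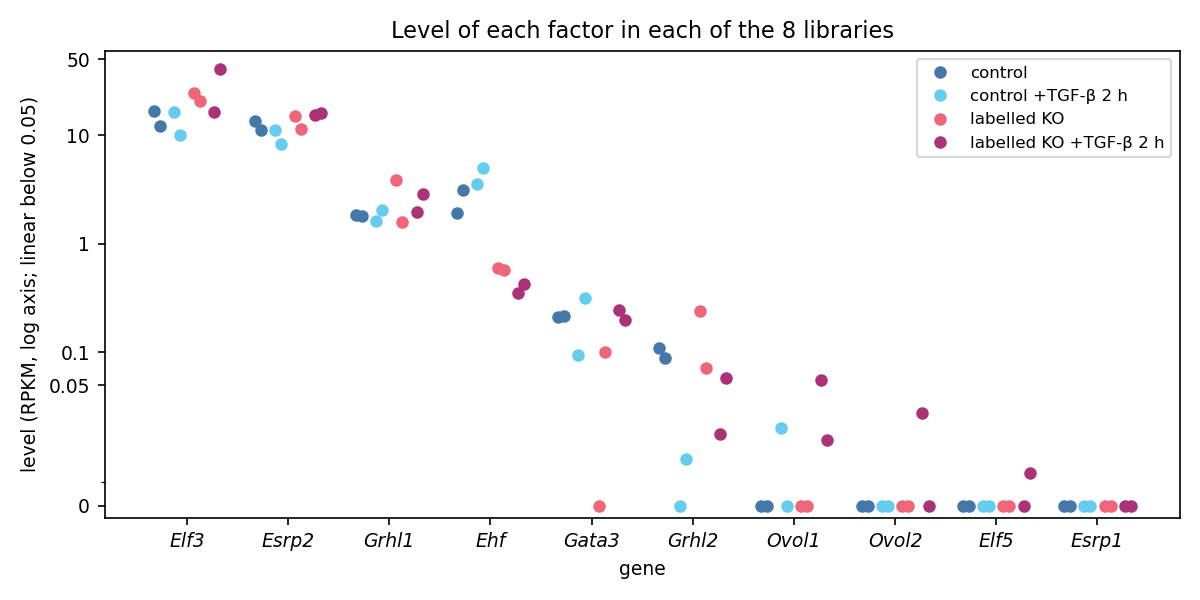
Levels of the 10 members in the 8 libraries, on an axis in RPKM that is logarithmic above 0.05, coloured by condition. *Elf3* and *Esrp2* lie highest in each condition, *Ehf* is the member whose points separate by genotype in both treatments, and *Esrp1* has no count in any library.

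In untreated control cells *Elf3* stood highest, at 14.4 ± 3.14 RPKM (SD, n = 2), followed by *Esrp2* at 12.3 ± 1.74, and the ranges of these neighbours overlapped. *Ehf* at 2.52 ± 0.837 and *Grhl1* at 1.84 ± 0.0336 came next, without overlap between their libraries. *Gata3* at 0.214 ± 0.00179 and *Grhl2* at 0.0991 ± 0.0148 were last among the members with any count. In untreated libraries labelled knockout the order of the 4 abundant members was *Elf3* (22.6 ± 2.94 RPKM), *Esrp2* (13.3 ± 2.63), *Grhl1* (2.72 ± 1.59) and *Ehf* (0.583 ± 0.0148), with no overlap between neighbours. After TGF-β, *Elf3* (13.2 ± 4.38) and *Esrp2* (9.75 ± 1.96) again overlapped in control cells and were followed by *Ehf* (4.25 ± 1.02) and *Grhl1* (1.83 ± 0.318). In treated libraries labelled knockout the levels were 28.6 ± 17.4 for *Elf3*, 15.7 ± 0.531 for *Esrp2*, 2.43 ± 0.639 for *Grhl1* and 0.389 ± 0.0543 for *Ehf*. *Ehf* thus stood above *Grhl1* in both control conditions and below it in both conditions labelled knockout. Its share of the summed RPKM of the 10 members was 5.62 to 19.2% in the 4 control libraries and 0.705 to 1.67% in the 4 libraries labelled knockout.

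Of the 4 tested members, *Ehf* differed between the genotypes in both treatments and *Esrp2* after TGF-β, and none was called for TGF-β itself. Differences were estimated with edgeR's quasi-likelihood test over all 8 libraries and 13028 genes. A gene was called where its Benjamini-Hochberg adjusted p was below 0.05 and its log2 fold change beyond 0.5 in either direction. Between untreated genotypes 1 of the 4 members was called (*Ehf*, lower), where 1.83% of all genes were called, 1.03% upwards and 0.798% downwards. After TGF-β 2 of the 4 were called between genotypes, *Ehf* lower and *Esrp2* higher, where 15.0% of all genes were called, 8.47% higher and 6.57% lower. For TGF-β in control cells 0 of the 4 were called by edgeR, where 9.16% of all genes were called, 4.69% higher and 4.47% lower. For TGF-β in cells labelled knockout 0 of the 4 were called, where 6.82% of all genes were called, 4.25% higher and 2.57% lower. At an unadjusted p under 0.05 there was 1 member in control cells, *Ehf*, and 0 in cells labelled knockout, and DESeq2 called 0 in each. For the interaction edgeR called 0 genes of 13028 (0%), members included, although 1134 had an unadjusted p under 0.05, among them 1 member, and DESeq2 called 23. Libraries that did not overlap were common, at 51.9% of all genes untreated between genotypes and 55.8% treated, 53.7% for TGF-β in control cells and 56.6% in cells labelled knockout. Median log2 fold changes of the 4 members were 0.32, -0.06, 0.06 and 0.55 between untreated genotypes, with TGF-β in control cells, with TGF-β in cells labelled knockout and between treated genotypes, beside 0.02, 0.02, 0 and -0.01 over all genes.

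Among the Grainyhead-like and OVO-like factors, *Grhl1* was the only one that could be followed. *Grhl1*, a factor of surface epithelia and desmosome genes, had 6.51 and 6.35 CPM in untreated control libraries and 13.4 and 5.58 CPM in untreated libraries labelled knockout. After TGF-β the values were 5.62 and 7.20 CPM in control libraries and 6.93 and 10.1 CPM in libraries labelled knockout. The libraries overlapped in each comparison, and the value of 13.4 CPM came from the library with the fewest counts, 61 of them on *Grhl1*. For *Grhl1* the log2 fold change of cells labelled knockout over control was 0.53 (SE 0.420, adjusted p = 0.606) untreated and 0.41 (SE 0.400, adjusted p = 0.523) after TGF-β. The changes with TGF-β were -0.01 (SE 0.413) in control cells and -0.12 (SE 0.407) in cells labelled knockout, and none was called.

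*Grhl2*, which maintains E-cadherin and other junction genes in many epithelia, had 5 and 4 counts in untreated control libraries, 0 and 1 after TGF-β, 6 and 3 under the knockout label without treatment and 2 and 4 with it. Without the filter on low counts its log2 fold change with TGF-β in control cells was -3.14 (SE 1.67) with an edgeR adjusted p of 0.285, so that a difference was not detectable at this depth. *Ovol1* had 1 count in a treated control library and 2 and 1 counts in the treated libraries labelled knockout. *Ovol2* had 1 count over the 8 libraries together, in a treated library labelled knockout. For both OVO-like genes, 0 counts in the untreated control libraries together allow up to 0.182 CPM, and 0 in the untreated libraries labelled knockout up to 0.249 CPM, for counting error alone.

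*Gata3* was also near the limit of detection. It had 7 and 7 counts in untreated control libraries and 4 and 12 after TGF-β. Libraries labelled knockout had 0 and 3 counts untreated and 12 and 10 after TGF-β. Summed over a group, this gave 0.849 CPM (95% Poisson interval 0.464 to 1.43) in untreated control cells and 0.249 CPM (0.0513 to 0.727) in the untreated group labelled knockout, intervals that cover counting error only and that overlap. Without the filter, log2 fold changes were -1.81 (SE 1.13, adjusted p = 0.596 by edgeR) between untreated genotypes and 1.89 (SE 1.10, adjusted p = 0.387) with TGF-β in cells labelled knockout, and neither was called.

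*Ehf*, an ETS factor of glandular and surface epithelia, was the member that differed most between genotypes among the 4 tested. It had 10.7 and 17.3 CPM in untreated control libraries and 3.31 and 3.19 CPM in untreated libraries labelled knockout, from 89, 142, 15 and 24 counts. Its libraries did not overlap, and its level was 4.32-fold lower in those labelled knockout, at -2.11 on the log2 scale (SE 0.347, adjusted p = 0.0187 by edgeR). After TGF-β it had 19.7 and 27.7 CPM in control libraries, from 210 and 262 counts, and 1.96 and 2.38 CPM in libraries labelled knockout, from 24 and 30 counts. These did not overlap either, and *Ehf* was 10.8-fold lower, at a log2 fold change of -3.44 (SE 0.335, adjusted p = 0.000812). In RNA from whole cultures, fewer cells that express a gene and less RNA per cell cannot be told apart.

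**Figure D2:**
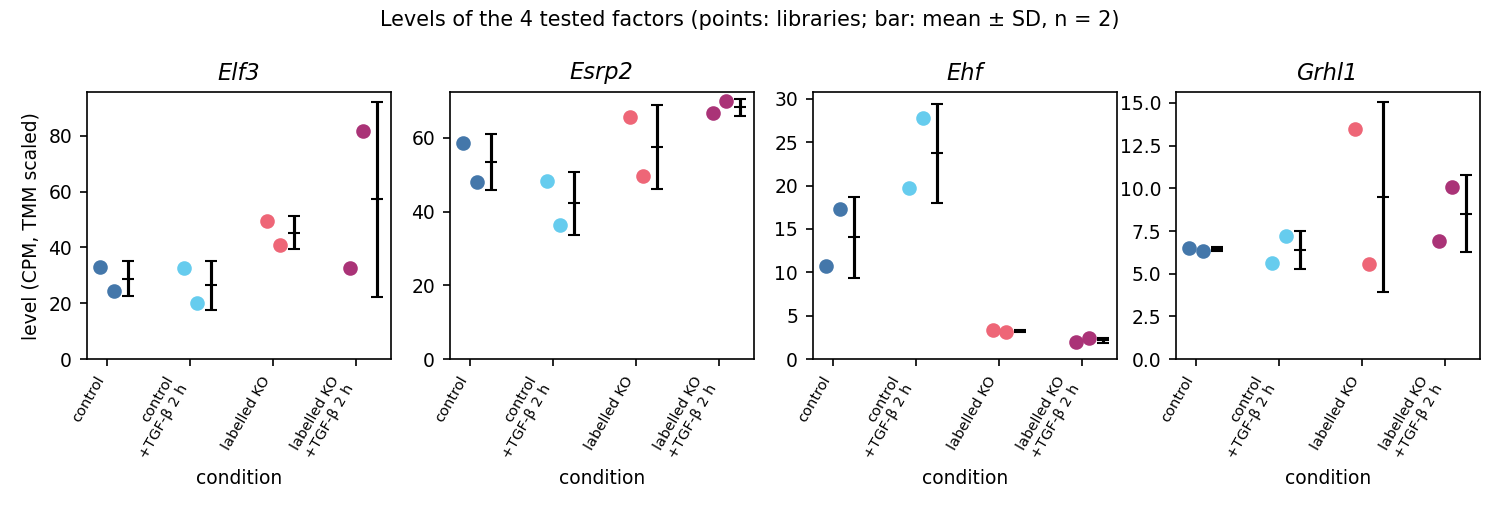
CPM of the 4 tested members in each library (points) with the mean ± SD of each group (bars, n = 2), for control and knockout labels, untreated and after 2 h of TGF-β. The *Ehf* libraries labelled knockout, between 1.96 and 3.31 CPM, lie below all 4 control libraries, between 10.7 and 27.7 CPM.

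The treated *Ehf* difference was called with each of the 8 libraries left out in turn, at log2 fold changes between -3.65 and -3.17. The untreated difference rested on more of the libraries. It was -1.73 (adjusted p = 0.140) without the second control library, -2.13 (0.139) without the first library labelled knockout and -2.09 (0.176) without the second, by edgeR, and so lost its call in these 3 cases.

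The estimated changes of *Ehf* with TGF-β had opposite signs in the 2 genotypes, and neither passed the test. In control cells both treated libraries lay above both untreated ones, at a log2 fold change of 0.75 (SE 0.293, adjusted p = 0.136). In cells labelled knockout both treated libraries lay below both untreated ones, at -0.57 (SE 0.381, adjusted p = 0.417). The interaction, which is the difference between these changes, was -1.33 (SE 0.481) with an edgeR p of 0.0209 that became 0.497 after Benjamini-Hochberg adjustment.

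*Ehf* lies on chromosome 2 at chr2:103103590-103143435 on the minus strand (NCBIM37, mm9), 108.4 kb from *Elf5* and 64.4 Mb from the deleted locus, which is on the same chromosome. Of 47 annotated genes within 1 Mb, *Ehf* included, 12 were tested. *Ehf* was the 1 gene called among them in either genotype comparison, and 0 were called higher. The log2 fold changes of the nearest tested genes were -0.07 untreated and -0.22 treated for *Apip*, and 0.05 and -0.03 for *Cat*, the catalase gene on the other side of *Elf5*. *Abtb2* had 0.78 and 1.25 with adjusted p of 0.661 and 0.192.

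**Figure D3:**
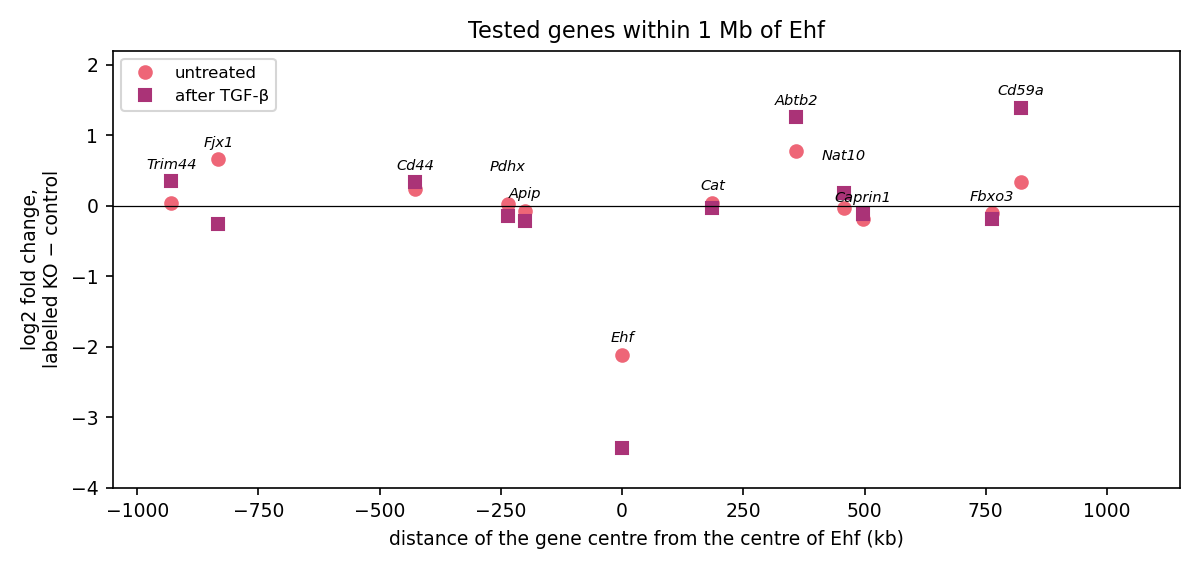
Log2 fold changes of libraries labelled knockout over control for the 12 tested genes within 1 Mb of *Ehf*, untreated and after TGF-β, against distance of gene centres from the centre of *Ehf* in kb. *Ehf* lies at -2.11 and -3.44, and none of its 11 tested neighbours was called.

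The tested genes whose profile over the 8 libraries lay closest to that of *Ehf* were *Gnai1*, which encodes an inhibitory G protein subunit, and *Zfp422*, a zinc finger gene. Their root mean square differences from the centred log2 CPM profile of *Ehf* were 0.368 and 0.469 among 10570 genes compared, and they lie on chromosomes 5 and 6. For *Gnai1*, control libraries had 47.9, 59.4, 51.5 and 67.5 CPM, beside 14.1, 14.9, 11.2 and 10.6 CPM under the knockout label. These profiles share libraries and depth with *Ehf* and are a description.

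The summed level of mesenchymal markers also did not overlap between the genotype labels. It ran from 2528 to 2803 CPM in the 4 control libraries and from 3529 to 3774 CPM in the 4 libraries labelled knockout, nearly all of it *Vim*, whose log2 fold change was 0.47 (adjusted p = 0.0827 by edgeR) untreated and 0.42 (adjusted p = 0.0365) treated, under the fold change threshold. Of the 9 mesenchymal markers, 2 were tested and 0 called, 4 had at most 3 counts in every library, and the fibroblast markers *Lum* and *Thy1* were at 0. The part of these markers in the *Ehf* result was not tested.

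*Elf3*, an ETS factor of simple epithelia that is induced in inflammation, was the most abundant member per length. It had 33.2 and 24.3 CPM in untreated control libraries and 49.4 and 41.1 CPM in untreated libraries labelled knockout, which did not overlap. After TGF-β the values were 32.6 and 20.2 CPM in control libraries and 32.6 and 81.8 CPM in libraries labelled knockout, where the second library stood apart from its replicate. Its log2 fold change of cells labelled knockout over control was 0.65 (SE 0.399, adjusted p = 0.496 by edgeR) untreated and 1.11 (SE 0.392, adjusted p = 0.0851) treated, and neither was called. The treated value was 0.31 without the second treated library labelled knockout and 1.64 without the first (adjusted p = 0.0118), which was called. It was also called without the first treated control library, at 1.52 (adjusted p = 0.0469), and by DESeq2 with all 8 libraries (adjusted p = 0.0158). Its changes with TGF-β were -0.12 (SE 0.397) in control cells and 0.34 (SE 0.389) in cells labelled knockout, within the spread of the replicates. *Elf5* had 1 count over the 8 libraries together, in a treated library labelled knockout.

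Of the splicing regulators, *Esrp2* was detected in every library and *Esrp1* in none. *Esrp1* had 0 counts in each of the 8 libraries, which allows up to 0.121 to 0.249 CPM in a group. *Esrp2* had 58.7 and 48.1 CPM in untreated control libraries and 65.7 and 49.6 CPM in untreated libraries labelled knockout, which overlapped. After TGF-β it had 48.4 and 36.3 CPM in control libraries and 66.7 and 69.9 CPM in libraries labelled knockout, which did not. The treated difference was called, 1.61-fold higher in those labelled knockout at a log2 fold change of 0.69 (SE 0.200, adjusted p = 0.0464 by edgeR). The call was close to the threshold and was lost in 7 of the 8 cases with a library left out, at log2 fold changes from 0.50 to 0.73. It was kept only without the first treated control library. The other changes of *Esrp2* were 0.10 (SE 0.203) between untreated genotypes, -0.33 (SE 0.202) with TGF-β in control cells and 0.25 (SE 0.201) with TGF-β in cells labelled knockout, and none of these was called.

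The exons of *Esrp2* share 219 bases with *Nfatc3* and 119 bases with the non-coding *1810019D21Rik*, both on the other strand. *Nfatc3* had 396 to 1179 counts and *1810019D21Rik* 32 to 81 counts in a library. Whether reads were counted by strand is not given in the sources used here, so that reads of these genes in the shared bases cannot be told apart. The genes whose profiles lay closest to that of *Esrp2* were *Pex14*, a peroxisomal import gene, and *Gcc1*, a Golgi coiled-coil gene, with root mean square differences of 0.0822 and 0.0853 on the log2 scale. Overlaps on exons with genes of the other strand also occur for *Grhl2*, *Ovol2*, *Esrp1*, *Elf3* and *Gata3*, but those partners had at most 5 counts in any library.

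**Figure D4:**
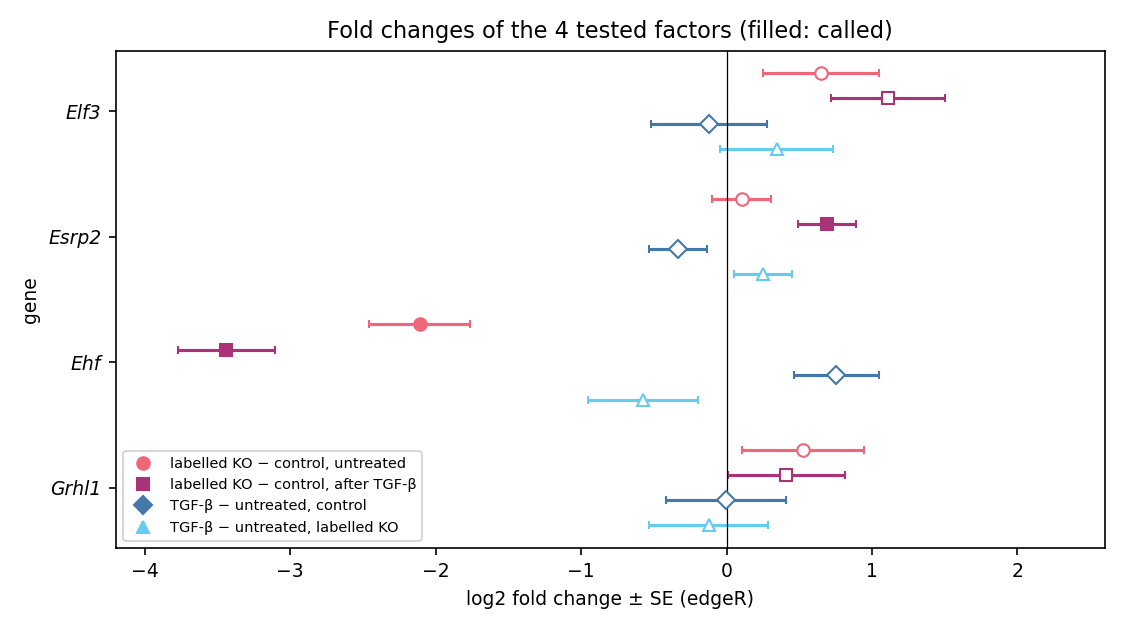
Log2 fold changes with standard errors of the 4 tested members in the 4 comparisons of 2 groups, with called values marked. *Ehf* is at -2.11 and -3.44 and *Esrp2* at 0.69 where called, and no other value was called.

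Relatives of the members were described beside them. Of 11 genes of the same families, 5 were tested (*Elf1*, *Elf2*, *Elf4*, *Gata4* and *Gata6*) and edgeR called 0 in any of the 5 comparisons, while 3 of them (*Elf2*, *Elf4* and *Gata6*) had an unadjusted p under 0.05 in some comparison and DESeq2 called 1, *Elf2*. *Grhl3*, *Ovol3*, *Spdef*, *Gata1*, *Gata2* and *Gata5* had at most 3 counts in every library. *Elf2*, a widely expressed ETS factor, came closest, with 50.7 and 63.9 CPM in untreated libraries labelled knockout and 80.6 and 94.6 CPM after TGF-β, a log2 fold change of 0.61 (SE 0.167, adjusted p = 0.0616). It had 82.0 and 83.5 CPM in untreated control libraries and 118 and 102 CPM after TGF-β. *Elf4* lay between 49.2 and 93.1 CPM in the 8 libraries.

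Of 18 epithelial genes listed as targets of these factors, 9 were tested, 6 had at most 3 counts in every library, and of these *Cldn3*, *Cldn7* and *Ap1m2* had none. With TGF-β in control cells 1 of the 9 was called lower, *Spint2*, which encodes an inhibitor of epithelial surface proteases. *Spint2* had 87.8 and 87.0 CPM in untreated control libraries and 34.9 and 44.7 CPM after TGF-β, a log2 fold change of -1.14 (SE 0.168, adjusted p = 0.00479 by edgeR), a call lost only without the first untreated control library among the 8 cases with a library left out. In libraries labelled knockout it had a mean of 100.8 CPM (SD 0.685, n = 2) untreated and 114 and 137 CPM after TGF-β, which put it 1.66 (SE 0.168, adjusted p = 0.00091) above treated control cells. The test of the difference between its 2 TGF-β changes gave 1.46 (SE 0.234) with an adjusted p of 0.322.

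**Figure D5:**
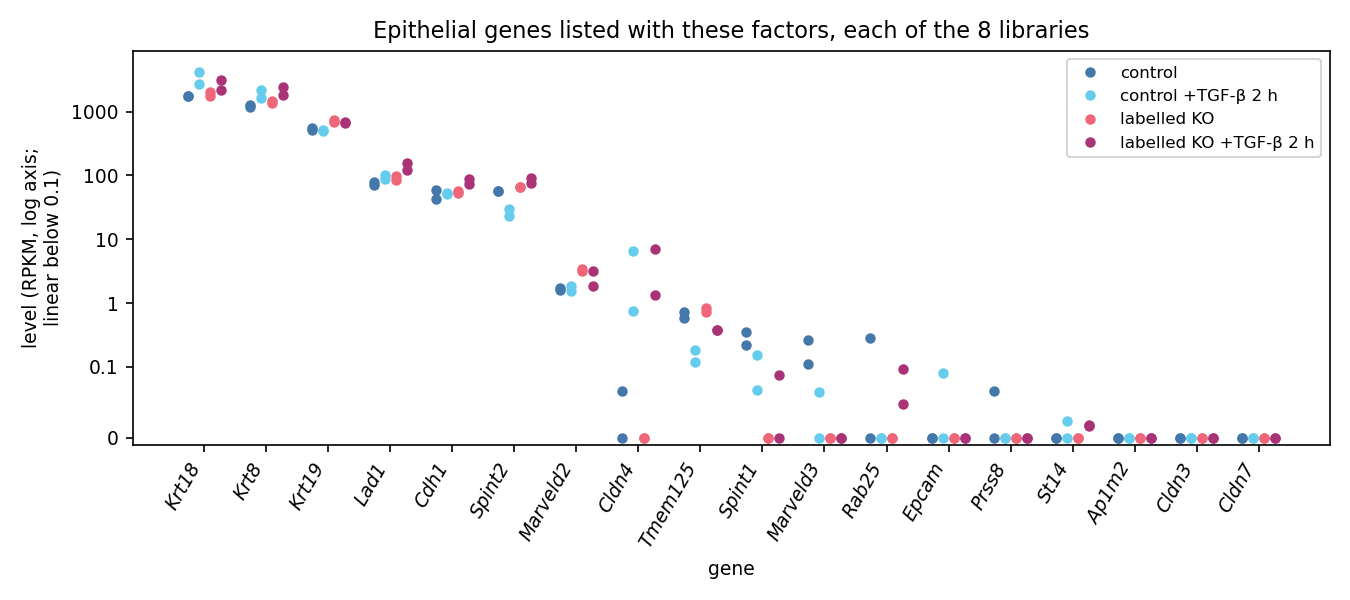
RPKM of the 18 epithelial target genes by library, on an axis that is logarithmic above 0.1 and reaches 0. The keratin genes lie highest, *Spint2* is lower in the treated control libraries, and *Cldn3*, *Cldn7* and *Ap1m2* have no count in any library.

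*Cdh1* had 193 and 267 CPM in untreated control libraries and 238 and 242 CPM after TGF-β. It had 247 and 266 CPM in untreated libraries labelled knockout and 333 and 400 CPM after TGF-β, and the treated difference between genotypes was called at a log2 fold change of 0.61 (SE 0.174, adjusted p = 0.0433 by edgeR). *Krt8* and *Krt18*, the keratin pair of simple epithelia, rose with TGF-β in control cells, by 0.65 (adjusted p = 0.0472) and 0.96 (adjusted p = 0.0295) on the log2 scale. In cells labelled knockout their treated libraries also lay above the untreated ones, at 0.58 (adjusted p = 0.0792) and 0.48 (adjusted p = 0.229), which were not called, and the interaction had adjusted p of 0.967 and 0.692. With a library left out in turn, the call of *Cdh1* was kept in 2 of 8 cases and those of *Krt8* and *Krt18* in 3 of 8 each, and none of the 3 was called with the libraries of the comparison only. *Krt19* and *Lad1*, a basement membrane filament gene, were not called by edgeR, with log2 fold changes of 0.44 and 0.55 between treated genotypes (adjusted p = 0.0355, under the fold change threshold, and 0.0510 by edgeR), whereas DESeq2 called *Lad1* in some comparison. In all, 2 of the 9 were called higher and 1 lower with TGF-β in control cells, 0 in cells labelled knockout, 0 between untreated genotypes and 2 higher between treated genotypes. Over all genes 9.16%, 6.82%, 1.83% and 15.0% were called in these comparisons, in either direction. Median log2 fold changes of the 9 were 0.06, 0.48, 0.21 and 0.55, beside 0.02, 0, 0.02 and -0.01 over all genes. *Cldn4*, a tight junction gene named here after its values were seen, had 0.121 and 0 CPM in untreated control libraries and 11.8 and 1.38 CPM after TGF-β. Under the knockout label it had 0 CPM in both untreated libraries and 2.45 and 12.9 CPM after TGF-β. Its treated libraries lay above the untreated ones in both genotypes, with adjusted p of 0.0528 and 0.0601 by edgeR, so that it was not called, whereas DESeq2 called it in some comparison.

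Of the 6 EMT factors that oppose the members, 4 were tested and 3 rose with TGF-β in control cells by edgeR, where 4.69% of all genes were called higher. *Snai1*, the Snail repressor gene, had 0.724 and 0.732 CPM in untreated control libraries and 15.3 and 12.5 CPM after TGF-β, a log2 fold change of 4.23 (SE 0.324, adjusted p = 0.000416). In cells labelled knockout it rose from 1.54 and 1.46 CPM to 26.1 and 21.9 CPM, by 3.99 (SE 0.304, adjusted p = 0.000313), and it was 0.79 (adjusted p = 0.0479) higher than in treated control cells. This last call was lost by DESeq2, with the libraries of the comparison only and in 7 of the 8 cases with a library left out, while the calls of *Snai1* for TGF-β were kept in each of these. *Zeb2* rose by 1.05 (adjusted p = 0.00778) in control cells and by 1.17 (adjusted p = 0.0054) in cells labelled knockout. *Zeb1* rose by 0.88 (adjusted p = 0.0250) in control cells, and its value of 0.70 in cells labelled knockout was not called (adjusted p = 0.0616). With a library left out in turn, the call of *Zeb1* was kept in 4 of 8 cases and each call of *Zeb2* in 6 of 8. *Twist2* was tested and not called, *Snai2* had 2 to 19 counts and *Twist1* at most 2 counts in a library. None of these 6 genes was called between untreated genotypes.

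Of 12 splicing factors that work with or against ESRP proteins, edgeR called 1 lower with TGF-β in control cells, 2 higher with TGF-β in cells labelled knockout, 1 lower between treated genotypes and 0 between untreated ones. Over all genes the shares in these directions were 4.47%, 4.25% and 6.57%, and 1.83% in either direction between untreated genotypes. *Rbm47*, an epithelial RNA-binding protein gene, fell in control cells from 126 and 116 CPM to 64.0 and 52.7 CPM with TGF-β, at a log2 fold change of -1.05 (SE 0.214, adjusted p = 0.0194 by edgeR), and had -0.77 (adjusted p = 0.0636) in cells labelled knockout. *Qk*, which encodes the quaking protein and favours mesenchymal isoforms, and *Hnrnph1* rose with TGF-β in cells labelled knockout, by 0.85 (adjusted p = 0.00713) and 0.63 (adjusted p = 0.0247). *Ptbp2*, a polypyrimidine tract binding protein gene, was lower in treated libraries labelled knockout, at 40.7 and 26.8 CPM beside 58.6 and 61.4 CPM in treated control libraries (log2 fold change -0.83, adjusted p = 0.0324), a call kept in 2 of the 8 cases with a library left out and lost with the libraries of the comparison only. With a library left out in turn, the call of *Rbm47* was kept in 5 of 8 cases, that of *Qk* in 6 and that of *Hnrnph1* in 4. *Ptbp1* and *Srsf1*, the most abundant of the rest, were not called by edgeR or DESeq2.

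All 15 genes listed as spliced by ESRP proteins were tested, *Grhl1* among them. *Ctnnd1*, the p120-catenin gene, rose with TGF-β by 0.59 (adjusted p = 0.0295 by edgeR) in control cells and 0.55 (adjusted p = 0.0411) in cells labelled knockout, and *Golim4*, a Golgi membrane protein gene, was higher by 0.66 (adjusted p = 0.0272) in treated libraries labelled knockout. With the libraries of the comparison only, *Golim4* and the change of *Ctnnd1* in control cells lost their calls, and with a library left out in turn these were kept in 3 of 8 cases each and that of *Ctnnd1* in cells labelled knockout in 2 of 8. *Cd44* and *Arhgef12*, the most abundant of the rest, were not called by edgeR, whereas DESeq2 called *Cd44* in some comparison. *Fgfr2* lay between 9.65 and 20.1 CPM in the 8 libraries. Counts per gene do not show which isoforms were made.

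TGF-β was active in both genotypes. The early response genes *Smad7*, *Snai1*, *Skil*, *Pmepa1*, *Ctgf* and *Junb* were called higher by edgeR in control cells and in cells labelled knockout. These TGF-β calls of *Snai1*, *Skil*, *Pmepa1* and *Ctgf* were kept with each of the 8 libraries left out, those of *Smad7* in 6 of 8 cases in each genotype and those of *Junb* in 4 and 6. *Id1* and *Id3*, targets of BMP signalling, had log2 fold changes of -0.65 (adjusted p = 0.0480) and -1.10 (adjusted p = 0.0480) with TGF-β in control cells by edgeR, calls that were kept in 3 of 8 such cases each and lost with the libraries of the comparison only. In cells labelled knockout their values were 0.31 (adjusted p = 0.337) and 0.20 (adjusted p = 0.744), not called, and the differences between the genotypes in these changes were 0.96 (adjusted p = 0.444) and 1.30 (adjusted p = 0.495). *Id2* was lower in libraries labelled knockout, at log2 fold changes of -1.28 untreated and -0.82 treated, calls kept in 4 and 3 of 8 cases. The treated call of *Id2* was also lost with the libraries of the comparison only. *Krt14*, the tested basal marker, rose with TGF-β by 2.33 in control cells and 3.66 in cells labelled knockout. The 8 basal and myoepithelial markers summed to 3.09 to 6.03 CPM untreated and 24.0 to 42.2 CPM treated. Most of this sum was *Krt14*, with group means of 4.91 CPM untreated and 24.8 CPM treated in control cells. In cells labelled knockout its means were 2.54 and 32.4 CPM. Of the 8 markers, 5 had at most 3 counts in every library, and the part of the 8 in the TGF-β results was not tested.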

How the data were processed

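Counts were used as the authors deposited them, whole numbers of reads on 37310 genes in 8 libraries that were not normalized. According to the methods, reads were aligned with subjunc to mm10 and mm9, duplicates were removed with samtools rmdup and counts were tested with DESeq2, while the submitters' processing notes name HISAT2, limma and mm10. The counting tool and its use of strand are not given in the sources used here. Library kit, sequencer and read layout are described differently in the paper and in the labels. Identifiers and their order were those of GENCODE vM1 on NCBIM37 (mm9), which gave positions and exon lengths. Removal of duplicates can lower the counts of abundant genes.

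From these counts, CPM with TMM factors were computed in edgeR 4.0.16 (R 4.3.3), and RPKM as CPM per kilobase of merged exons. The 13028 genes that passed filterByExpr were fitted over all 8 libraries with glmQLFit, without a replicate block, and contrasts were tested with glmQLFTest and adjusted over all genes by the Benjamini-Hochberg method. Calls needed an adjusted p below 0.05 together with a log2 fold change beyond 0.5 in either direction, while the interaction was judged by the adjusted p only. Standard errors are absolute log2 fold changes divided by the square root of F. Residual and prior degrees of freedom were 4 and 5.50, and the common biological coefficient of variation was 0.180. A group has 2 libraries, described as biological replicates, and totals of 4297832 to 13574397 counts limit rare transcripts. Poisson intervals (95%) and the limit of 3 counts cover counting error only. The scripts were tested on simulated data.

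The members, the gene lists, the comparisons and the alternatives were chosen with earlier results of these data known. Genes named are the members, the targeted gene, the called genes of each list with up to 2 abundant ones not called, the 2 genes of at least 5 CPM closest in profile to each called member, and genes overlapping members. Cell type markers, low or undetected genes of the lists, genes near *Ehf*, *Twist2* and *Fgfr2* were named beside that rule. The list of splicing factors held 14 symbols, 2 of them older names, and *Qk* had 2 rows, of which the one with more counts was used. Replicate numbers come from the labels. These numbers were not taken as pairs. Alternatives were DESeq2 1.42.0, RLE factors, total counts only, no filter, a mean of at least 10 counts, a replicate block, the libraries of a comparison only and each library left out. Of the TGF-β response list, 1 gene is not reported here.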

Additional observations from a re-analysis of the deposited data

Results flagged for a closer look

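The change of *Ehf* with TGF-β differed in direction between the genotypes. Both treated control libraries lay above both untreated ones, and both treated libraries labelled knockout lay below both untreated ones. The interaction was -1.33 on the log2 scale with an adjusted p of 0.497 by edgeR over 13028 genes, so that the difference did not pass the test. Over the other settings its adjusted p lay between 0.285 and 0.597, and with a library left out between 0.228 and 0.892, with log2 values from -1.71 to -1.02.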

How the results depend on the processing

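Of the members' log2 fold changes under alternatives, 284 kept direction and side of the threshold, 12 lost the call, 5 gained it and 15 changed sign, none of the last from a called value. Without each library in turn, 0 to 1 members were called between untreated genotypes, 1 to 3 between treated genotypes and 0 for TGF-β in either genotype and for the interaction. Between treated genotypes the 2 members became 1 (*Ehf*) with total counts only and 1 with the libraries of the comparison only, and *Esrp2* had 0.67 (adjusted p = 0.05003) and 0.69 (0.109) by edgeR. *Elf3* was called there by DESeq2 (1.12, adjusted p = 0.0158), without the filter (1.14, adjusted p = 5.38e-06) and without the first treated control library (1.52, adjusted p = 0.0469). *Ehf* was called in both genotype comparisons under the 8 settings other than leaving out a library.

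Changes of sign came from leaving out a library in all but 1 case. *Grhl1* then ranged from -0.21 to 1.06 between untreated genotypes (-0.21 without the first library labelled knockout), from -0.19 to 0.15 for TGF-β in control cells, from -0.65 to 0.61 for TGF-β in cells labelled knockout and from -0.64 to 0.62 for the interaction. *Esrp2* ranged from -0.11 to 0.29 between untreated genotypes. *Elf3* ranged from -0.52 to 0.18 for TGF-β in control cells, and from -0.44 to 0.88 for TGF-β in cells labelled knockout and from -0.31 to 1.01 for the interaction, with both lowest values without the second treated library labelled knockout. Under the exchanged block below, *Grhl1* for TGF-β in control cells was 0.0081.

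Deviations from group means of same-numbered libraries correlated across genes at 0.30 between the control groups, 0.10 between the untreated, -0.47 between the treated and -0.01 between the groups labelled knockout, so the numbers were not taken as pairs. With the replicate number as a block, 1 member was called between untreated genotypes, 2 between treated ones and 0 in the other comparisons, with no call of a member changed. Of 35 calls of other listed genes, the block lost 4, those of *Krt8* and *Id1* for TGF-β in control cells and of *Ptbp2* and *Snai1* between treated genotypes. With each library left out in turn, 24 of the 35 were lost in some case. A block with these numbers exchanged for the treated cells labelled knockout, chosen after seeing the data, called 3 members between treated genotypes and 1 between untreated ones. Family relatives had 1 called gene (*Elf2*) under DESeq2, without the filter and with the libraries of a comparison only. Epithelial target genes had 2 (*Cldn4*, *Spint2*) in the last and 6 (with *Cldn4* and *Lad1*) in the others, and genes spliced by ESRP 4 under DESeq2 and 5 without the filter, *Cd44* in both, and 3 in the last, without *Golim4*.

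Counts over all genes moved more. Between untreated genotypes 238 calls became 409 with DESeq2, 756 without the filter, 150 with the block, 804 with own libraries and 540 with exchanged numbers. For TGF-β in control cells 1194 became 2021 without the filter, 470 with own libraries and 1954 with exchanged numbers, and in cells labelled knockout 889 became 1832 and 1550 without the filter and with exchanged numbers. Between treated genotypes 1959 became 410 with own libraries, and the interaction had 211 without the filter, 23 with DESeq2 and 5 with exchanged numbers. With a library left out, these counts, on which the percentages called rest, ran from 42 (without the second untreated control library) to 390 between untreated genotypes, from 145 (without the first untreated control library) to 1484 for TGF-β in control cells, from 136 (without the first untreated library labelled knockout) to 1381 for TGF-β in cells labelled knockout, from 477 (without the second treated library labelled knockout) to 2762 between treated genotypes and from 0 to 6 for the interaction. The highest came without a treated control library. The causes were not tested. Total counts only moved the median of all genes to -0.13 and -0.15 for TGF-β in control cells and in cells labelled knockout, with 397 genes higher and 1019 lower in the first and 388 and 613 in the second, beside 611 and 583, and 554 and 335.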
